A study of Mus musculus with 18 samples.

Results

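The genes described are 37 genes of the cell cycle and of DNA replication, out of 21883 protein-coding genes of the mouse build mm10 (GRCm38.p6), measured in liver chromatin of mice with and without the factor CTCF in hepatocytes. They were taken as a list by function: 18 act at the start of S phase or in copying DNA, 18 act in G2 and mitosis, and Cdkn1a is an inhibitor of cyclin-dependent kinases (CDKs). Each gene was measured over its RefSeq span with 5 kb added on each side. Wild-type libraries (WT) came from CTCF fl/fl Albcre- mice and knockout libraries (KO) from CTCF fl/fl Albcre+ mice, all on the C57BL/6 strain and 8 weeks old, so the floxed Ctcf allele is shared by all groups and the groups differ by Cre. The Cre is driven by the albumin promoter, which is active in hepatocytes. The labels do not say which other cells of a KO liver keep an intact Ctcf gene. Peak lists of chromatin immunoprecipitation with sequencing (ChIP-seq) were used from 18 libraries: H3K27ac in WT 1, 2 and 4 and in KO 2, 3 and 4, H3K4me3 in WT 2 and KO 4, H3K27me3 in WT156 and KO150, CTCF in WT164, WT165, KO160 and KO163, and PPARg in WT 2 and 4 and in KO 7 and 8. The CTCF libraries and PPARg WT 2, KO 7 and KO 8 are labelled as males on standard chow after an overnight fast and were made by tagmentation. A ligation kit was used for all others, including PPARg WT 4, and their labels give no sex. Their growth protocol speaks of neural stem cells while their source label is liver.

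A resting cell enters the cycle when D-type and E-type cyclins with their CDKs release the E2F factors, which drive genes for S phase. Cdc6 and Cdt1 then load the MCM helicase onto origins, and ribonucleotide reductase and thymidylate synthase supply nucleotides. Genes for G2 and mitosis are switched on later, through the MYBL2 and FOXM1 factors and promoter elements named CHR (cell cycle genes homology region) and CCAAT box. Hepatocytes of an adult liver are mostly quiescent and re-enter the cycle after injury or loss of tissue. H3K4me3 marks the starts of active or ready genes, H3K27ac marks active starts and enhancers, and H3K27me3 marks genes held silent by Polycomb.

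The classes differ in the letters around their starts. RefSeq start regions from 250 bases before to 50 after the start were at hand for 30 of the 37 members, 15 of them S-phase and 14 mitotic. They were searched on each strand for E2F letters (TTTCGCGC, TTTGGCGC, TTTCCCGC, TTTGCCGC), CHR letters (either TTTGAA or else TTCGAA) and the CCAAT box (CCAAT). A member was counted if any of its regions matched, and E2f2 and Mcm7 have 2 regions each, while the background counts single regions. E2F letters stood at 8 of 15 S-phase members and at 1 of 14 mitotic members, Cdk1, against 2.85% of 21262 regions of the same length. CHR letters stood at 3 of 15 S-phase and 11 of 14 mitotic members, against 17.6% of all regions. The CCAAT box stood at 10 of 15 and 12 of 14, against 38.2%, and CHR with CCAAT box together stood at 3 of 15 and 11 of 14, against 7.11%. A match is a string of letters and shows no binding, and E2F matches on opposite strands can overlap.

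The start regions below, 150 bases from -130 to +20 in GRCm38.p6 from RefSeq, are those of mitotic genes at which the H3K4me3 results turn (Ccnb1, Ccnb2, Cdk1, Cdc20, Kif23), of the proliferation marker Mki67, and of the S-phase genes Mcm6 and Rrm2 for contrast. Capitals mark the motif letters listed above, read 5′ to 3′ on the gene's strand, with reverse-strand matches in capitals where they fall. A match that crosses the edge of the printed bases stays in lower case, as do the E2F letters of Cdk1, from -131 to -124.
Ccnb1 (chr13:100786467-100786616, reverse strand): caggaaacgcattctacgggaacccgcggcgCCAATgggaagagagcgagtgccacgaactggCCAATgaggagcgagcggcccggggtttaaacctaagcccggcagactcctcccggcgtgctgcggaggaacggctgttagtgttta
Ccnb2 (chr9:70421535-70421684, reverse strand): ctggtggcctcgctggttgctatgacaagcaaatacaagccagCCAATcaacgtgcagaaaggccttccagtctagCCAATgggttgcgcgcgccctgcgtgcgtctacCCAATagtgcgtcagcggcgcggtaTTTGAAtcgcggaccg
Cdk1 (chr10:69352893-69353042, reverse strand): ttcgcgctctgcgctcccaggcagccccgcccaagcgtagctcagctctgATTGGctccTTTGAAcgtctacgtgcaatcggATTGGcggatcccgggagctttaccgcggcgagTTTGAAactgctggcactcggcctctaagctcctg
Cdc20 (chr4:118437324-118437473, reverse strand): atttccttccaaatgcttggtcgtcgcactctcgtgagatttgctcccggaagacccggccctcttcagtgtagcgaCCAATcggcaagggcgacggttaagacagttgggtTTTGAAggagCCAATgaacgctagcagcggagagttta
Kif23 (chr9:61946780-61946929, reverse strand): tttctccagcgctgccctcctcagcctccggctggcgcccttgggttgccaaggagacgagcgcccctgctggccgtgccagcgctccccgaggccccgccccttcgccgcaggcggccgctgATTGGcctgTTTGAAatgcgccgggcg
Mki67 (chr7:135716360-135716509, reverse strand): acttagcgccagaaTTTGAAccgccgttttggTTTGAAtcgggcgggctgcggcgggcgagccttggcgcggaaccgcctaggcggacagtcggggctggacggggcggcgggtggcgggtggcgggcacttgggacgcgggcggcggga
Mcm6 (chr1:128359686-128359835, reverse strand): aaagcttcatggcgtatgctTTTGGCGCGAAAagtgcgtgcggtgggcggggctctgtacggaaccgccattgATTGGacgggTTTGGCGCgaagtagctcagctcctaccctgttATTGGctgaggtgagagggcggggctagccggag
Rrm2 (chr12:24708124-24708273, forward strand): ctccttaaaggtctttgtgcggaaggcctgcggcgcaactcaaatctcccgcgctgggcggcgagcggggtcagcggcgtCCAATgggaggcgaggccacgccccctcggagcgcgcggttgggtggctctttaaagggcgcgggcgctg
The CHR letters lie from position -18 to -13 at Cdc20, from +3 to +8 at Kif23 and from +5 to +10 at Ccnb2. Mcm6 holds E2F letters from -110 to -103 and from -47 to -40, and a reverse-strand match from -106 to -99 that overlaps the first. Ccnb1 holds CCAAT boxes but no CHR letters in the window searched, and Rrm2 holds a CCAAT box and no E2F letters of the forms searched.

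The peak lists differ in length in ways that bear on every value below. H3K27ac lists held 34324 to 51311 peaks over 78.2 to 125.7 Mb, and KO 4 was the longest, against 78.2 to 91.5 Mb in the other 5. The H3K4me3 lists held 16341 peaks over 21.7 Mb in WT 2 and 17402 peaks over 19.1 Mb in KO 4, so KO peaks were more numerous and narrower, with a median width of 995 bp against 1214 bp and a median fold enrichment of 7.54 against 8.98. Lengths were therefore scaled by each library's total covered length. At some members and genes the scaling changed a direction, a separation of the genotypes or the size of a difference by over 1.5 times. Unscaled values are given for a part of these. By H3K27ac, the direction of the difference in means also turned at Ccne1, Cdt1 and Cdc20, which were lower in KO with scaling and higher without. H3K4me3 and H3K27me3 have 1 library per genotype, so their differences have no replicate check and compare libraries, not genotypes. The labels do not say whether H3K4me3 KO 4 and H3K27ac KO 4 came from the same animal. Of 10 hepatocyte markers, 10 had an H3K4me3 and an H3K27ac peak in every library of these marks, and of 7 neural stem cell markers none had an H3K4me3 peak. The peaks called at Ctcf cannot show whether the floxed exons were removed. Of 22044 CTCF sites called in both WT libraries, 72.3% were called in both KO libraries as well.

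H3K4me3 in the windows of 5 mitotic members was longer in the KO library by a scaled ratio past 1.5, and no S-phase member passed that ratio there. Over the gene span with 5 kb each side, 17 of 18 S-phase members had a peak in each library, and none passed a scaled KO to WT ratio of 1.5 in either direction. Their ratios ran from 0.734 at Tyms, thymidylate synthase, to 1.28 at Ccnd1, cyclin D1, with a median of 1.01. Of the mitotic members, 16 had a peak in each library, 5 of them passed 1.5 upward and none downward, and the median ratio was 1.27, with 4 below 1 (Bub1, Birc5, Kif11 and Top2a). Unscaled, 2 mitotic members passed upward and 1 S-phase member, Tyms, passed downward, against 620 upward and 1223 downward of 12345 genes. The difference between the classes was not tested. Over all 12345 genes with a peak in each library the median scaled ratio was 1.01, with 7.4% past 1.5 upward and 4.72% downward. Ccnb2, cyclin B2, had a peak in KO only, as had 5.19% of genes with a peak in either library, and no member had one in WT only, against 1.74%. Cdc6, the loader of the MCM helicase, and Mybl2 had no H3K4me3 peak in either library.

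The 5 mitotic genes past the ratio act in entry into mitosis, in chromosome segregation or in division of the cell. Cdk1, the kinase that drives mitosis, had 709 bp covered in WT 2 and 1213 bp in KO 4, a scaled ratio of 1.95. Kif23, a motor protein of the midbody, had 1832 bp against 3072 bp, a ratio of 1.91. Foxm1, a transcription factor of G2 genes, had 1074 bp against 1570 bp, a ratio of 1.66. Each of these was longer in KO 4 also before scaling. Ccnb1, cyclin B1, had 1164 bp against 1675 bp, a ratio of 1.64, and its window also takes in a peak at the start of Cenph. Aurkb, the kinase of the chromosomal passenger complex, had 1541 bp against 2073 bp, a ratio of 1.53. Ccna2, cyclin A2, lay just inside the limit at 1.49, with 849 bp against 1111 bp, and Cdc20, the activator of the anaphase-promoting complex, reached 1.41, with 1398 bp against 1728 bp. The lowest mitotic ratio was 0.865, at Bub1, a spindle checkpoint kinase, with 280 bp against 213 bp. The lowest ratios among S-phase members belonged to Tyms (948 bp against 612 bp), to Rrm1, the large subunit of ribonucleotide reductase (1273 bp against 900 bp, a ratio of 0.804), and to the helicase subunit gene Mcm6 (991 bp against 757 bp, 0.869).

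**Figure D1:**
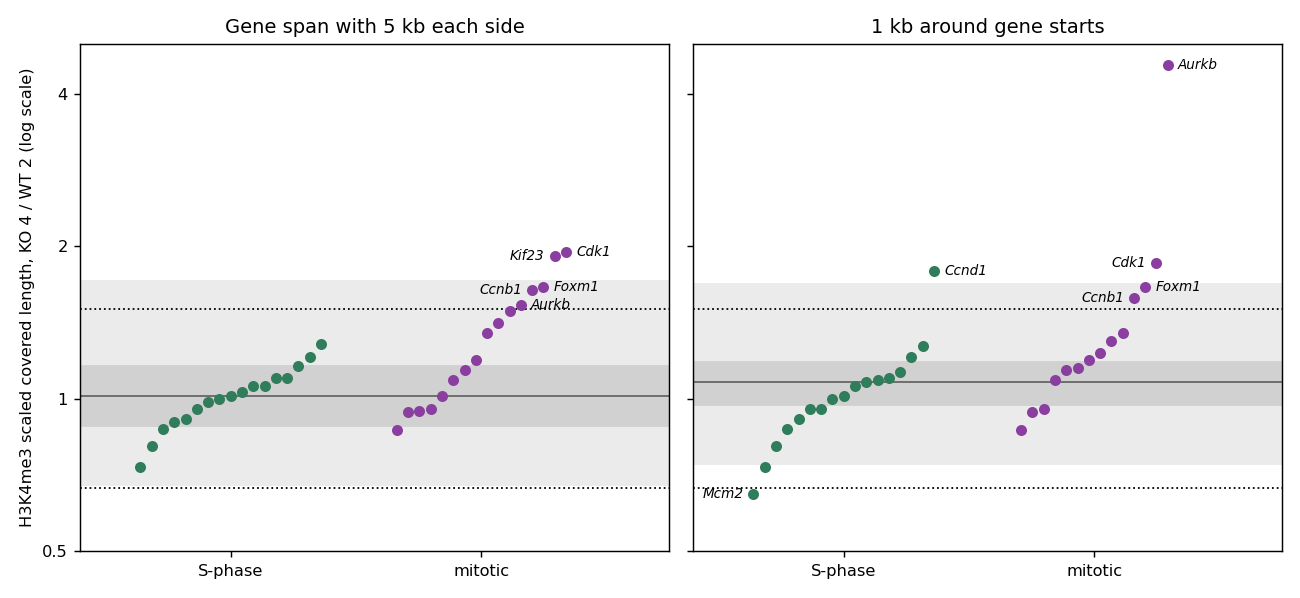
Scaled H3K4me3 covered length in KO 4 divided by that in WT 2, on a log scale, for members with a peak in each library, over the gene span with 5 kb each side (left) and within 1 kb of gene starts (right). Each point is a gene, dotted lines mark ratios of 1.5 in each direction, and the line and the dark and light bands give the median, the middle 50% and the middle 90% of all genes; the mitotic points reach 1.95 on the left and 4.55 on the right, while S-phase points centre on 1.01 in each panel.

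Because a window with 5 kb flanks can hold the start of a neighbouring gene, the lengths were also taken within 1 kb of the members' own starts, a measure added after the first values were seen. For the 7 members with no listed start (Ccnd1, Ccne2, Mcm4, Ccna2, Cdc25c, Foxm1 and Aurkb) both ends of the span were used. At starts, 3 mitotic members had a peak in KO only, namely Ccnb2, Cdc20 and Kif23, against 5.74% of all genes with a peak in either library, and no member had one in WT only, against 1.6%. Another 4 passed 1.5 upward, namely Aurkb at 4.55, Cdk1 at 1.85, Foxm1 at 1.66 and Ccnb1 at 1.58, against 6.9% of all genes with a peak in each library. No mitotic member passed 1.5 downward, against 3.01%. Of the S-phase members, Ccnd1 passed upward at 1.79 (947 bp against 1494 bp) and Mcm2, a subunit of the MCM helicase, passed downward at 0.647 (557 bp against 317 bp). The median ratio was 1.21 for 14 mitotic members with a start peak in each library, 1.01 for 17 S-phase members and 1.08 for all genes.

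The classes also differed before scaling. By unscaled length at starts, 13 of 17 mitotic members with a peak were longer in KO 4 and 4 were longer in WT 2 (Cdc25c, Bub1, Kif11 and Top2a). Of 17 S-phase members, 3 were longer in KO 4 (Ccnd1, E2f1 and Pcna) and 14 in WT 2. Of all 11958 genes with a start peak, 35.4% were longer in KO 4 and 60.4% in WT 2, and no test of the class against all genes was made. The plot of lengths at starts shows this gene by gene.

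The KO peaks at these starts were wider more than they were stronger. At Cdk1 the start peak had a fold enrichment of 9.39 in WT 2 and 9.2 in KO 4, at Foxm1 11.8 and 10.8, and at Aurkb 6.01 and 6.13. Of the 14 mitotic members with a start peak in each library, 6 had a higher fold in KO 4 and 8 a lower one, and of 17 S-phase members 4 had a higher and 13 a lower one. For comparison, 33.5% of all genes with a start peak in each had a higher fold in KO 4. The peaks called in KO alone were weak ones. Ccnb2 had 312 bp at a fold of 4.24 and a -log10 q of 3.22, and Cdc20 had 331 bp at a fold of 5.66 and a -log10 q of 6.04. Kif23 had 3 short peaks of 773, 240 and 236 bp, the strongest at a fold of 5.66 and a -log10 q of 6.04 and the others at 1.89 and 1.56. A peak missing from a list can be a weak signal under the caller's limit, so absence in WT 2 is not absence of the mark. With peaks of -log10 q of at least 10 alone, 2 mitotic members passed 1.5 upward over the gene windows, 1 had a peak in KO only and 2 in WT only. Of all genes there, 544 of 9985 with a peak in each passed upward, 347 had a peak in KO only and 887 in WT only.

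The map of peaks around 4 of these genes places the differences. Kif23 (chr9:61917277-61946810, reverse strand) had H3K4me3 and H3K27ac peaks in every library beyond its 3′ end, which the 5 kb window takes in, and at its start only KO 4 had H3K4me3. An H3K27ac peak lay within 1 kb of the Kif23 start in KO 4 alone. A CTCF site over that same start (chr9:61946604-61948367), which holds the printed Kif23 letters, was called in all 4 CTCF libraries with folds of 6.8 and 7.99 in WT and 8.67 and 5.87 in KO. Cdc20 (chr4:118432901-118437343, reverse strand) lies next to Elovl1, whose start peak accounts for its H3K4me3 in WT 2. At Cdk1 (chr10:69335146-69352912, reverse strand) H3K27ac ran from the start into the gene as a peak of 6599 bp in KO 3 and 5360 bp in KO 4, against a peak of 387 bp in KO 2, 1208 bp in WT 1 and none at the start in WT 2 and WT 4.

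**Figure D2:**
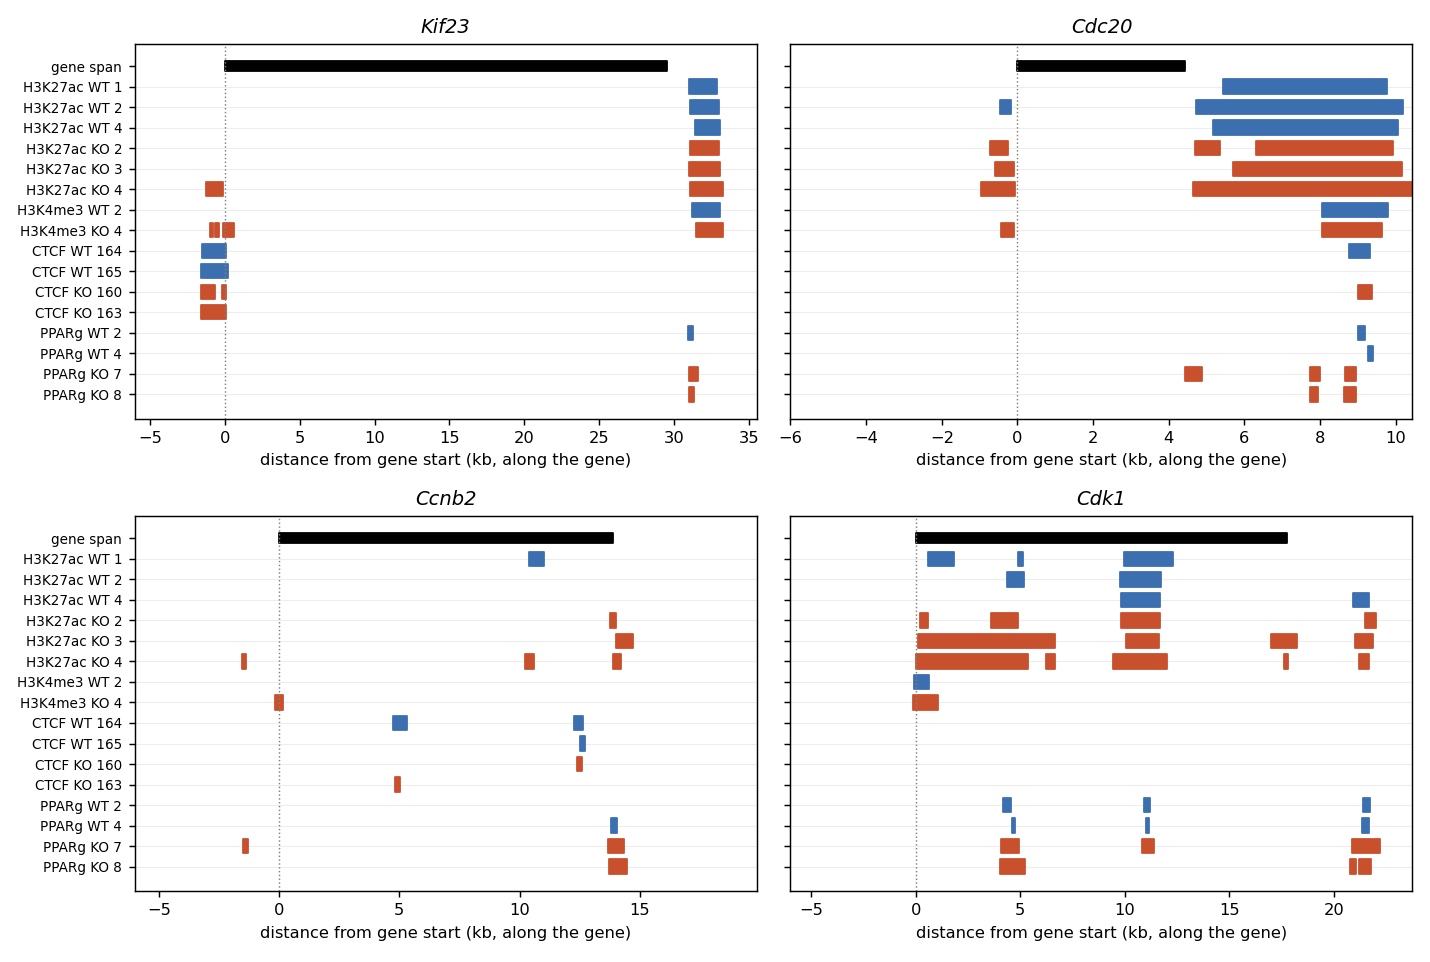
Deposited peaks of H3K27ac, H3K4me3, CTCF and PPARg around Kif23, Cdc20, Ccnb2 and Cdk1, by distance in kb from the gene start along the gene, with WT libraries in blue, KO libraries in red and the gene span in black, cut 6 kb beyond the span. H3K4me3 appears at the starts of Kif23, Cdc20 and Ccnb2 in KO 4 only and at Cdk1 in both libraries.

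H3K27ac, measured in 3 libraries per genotype, did not separate the genotypes at any member by limma. The measure was the percentage of the window covered by peaks, scaled to equal total covered length, and 14885 genes with a peak in at least 1 library were tested. None passed an adjusted p of 0.05 in either direction (0% higher, 0% lower), with 701 higher and 892 lower at an unadjusted p under 0.05. Bub1 and Cdc25c had no H3K27ac in any library, so 35 members were tested, and their lowest adjusted p by limma was 0.458, at Cdk1. Of 18 S-phase members 14 had a higher and 4 a lower mean in KO, and of 18 mitotic members 12 had a higher and 4 a lower one, against 7223 of the 14885 genes with a higher one. Of those 12, Ccnb1, Plk1 and Top2a had peaks in KO libraries only, so they had to be higher. Without scaling, 16 S-phase and 13 mitotic members had a higher mean in KO, against 75.9% of all genes. When every list was cut to the same covered length, 10 of 18 S-phase and 6 of 12 mitotic members with signal were higher in KO, against 56.2% of all genes.

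In 3 members, all mitotic, every KO library lay above every WT library, as in 7.46% of all genes tested. No member had every KO library below every WT library, against 8.67%. Cdk1 had the largest difference. Its scaled coverage in WT 1, 2 and 4 was 14.7, 10.1 and 11.3%. In KO 2, 3 and 4 it was 17.1, 37.1 and 23.7%, a KO minus WT difference of 13.9 ± 5.35 percentage points (SE; limma adjusted p = 0.458). Unscaled, the WT lengths were 3757, 2809 and 2664 bp and the KO lengths 4101, 10241 and 9014 bp, and KO 2 stood close to WT 1. Kif23 had 5.12, 4.88 and 5% in WT and 5.79, 5.36 and 6.11% in KO, a difference of 0.753 ± 0.474 points (limma adjusted p = 0.657), and most of that coverage was the peak beyond its 3′ end. Its unscaled means were 4.62 and 6.23%. Ccna2 was covered by 3.16, 1.72 and 0% in WT, and by 3.53, 3.64 and 3.64% in KO, a difference of 1.98 ± 0.913 points (limma adjusted p = 0.536).

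The other members with H3K27ac overlapped between genotypes on the scaled measure. Among G1/S genes, Ccnd1 was the most covered member, with 54.8, 49.7 and 50.1% in WT and 64.6, 65.8 and 47.1% in KO, and KO 4 lay below every WT library (limma adjusted p = 0.71). Without scaling, every KO library lay above every WT library there, with means of 47.6% in WT and 61.9% in KO. Rrm2, the small subunit of ribonucleotide reductase, had 22, 13.5 and 16.5% in WT and 25.3, 22.8 and 15.5% in KO (0.77). It too separated without scaling, with every KO library above every WT library and means of 16% and 21.9%. Mcm2 had 14.3, 10 and 13.6% in WT and 14.2, 13.1 and 11.5% in KO, which differ by less than the spread within a genotype (0.97), and its unscaled means were 11.6 and 13.7%. Cdc6, without H3K4me3, had H3K27ac in every library, 4.62, 8.31 and 4.17% in WT and 7.29, 12.2 and 21.8% in KO, all of it away from the start (0.561). Cdkn1a, which encodes the CDK inhibitor p21, had 12.4, 10.7 and 7.03% in WT and 12.6, 13.1 and 8.61% in KO (0.847), with unscaled means of 9.38 and 11.9%.

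Coverage of mitotic genes ran from 0 to WT means of 33.2% at Cdc20 and 33.8% at Birc5. Some S-phase members were low as well, with WT means of 0.712% at Tyms, 1.01% at Mcm6 and 1.42% at Rrm1. The mitotic members that follow were among those with low coverage. Ccnb1 had a peak only in KO 3, at 4.23%. Plk1, the polo-like kinase, had none in WT and 0, 2.43 and 2.22% in KO 2, 3 and 4. Mki67 had 1.82% in WT 4, 1.58% in KO 3, 2.69% in KO 4 and none in the other 3. Ccnb2 had 2.85, 0 and 0% in WT and 1.26, 2.91 and 2.68% in KO. Top2a, the topoisomerase that untangles chromosomes, had a peak only in KO 4. These values show 1 or 2 short peaks per library at most of these genes, and KO 4, the longest list, is among the libraries with a peak at each of Plk1, Mki67, Ccnb2 and Top2a.

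**Figure D3:**
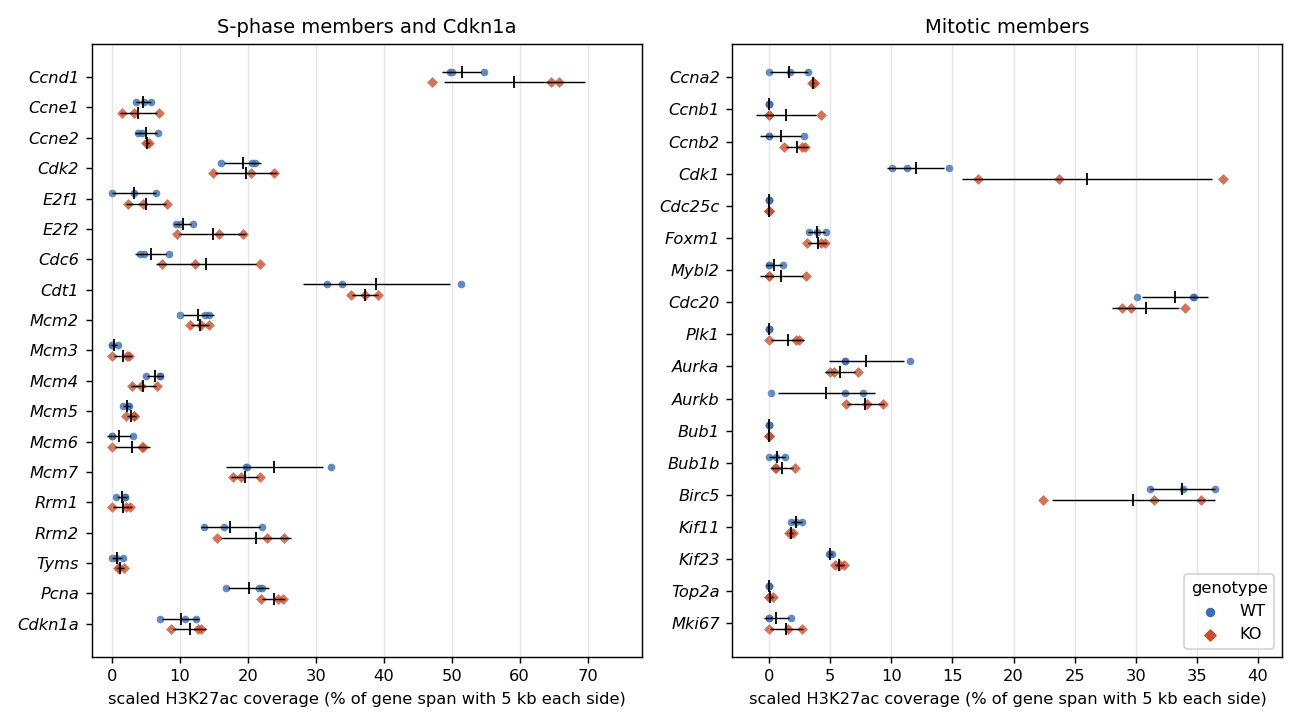
Scaled H3K27ac coverage in percent of the gene span with 5 kb each side, with a point per library (WT 1, 2 and 4 in blue, KO 2, 3 and 4 in red) and black bars for the mean and SD of 3 libraries. The genotypes separate at Cdk1, Kif23 and Ccna2 only. Most mitotic members and many S-phase members lie under 10%, while Ccnd1 lies between 47.1 and 65.8%.

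At gene starts the classes differed in how often H3K27ac was called at all. Within 1 kb of the start, 11 of 18 S-phase members and 4 of 18 mitotic members (Foxm1, Aurka, Birc5 and Kif11) had a peak in all 6 libraries, as had 47.2% of all genes. A peak in more KO than WT libraries was found at 8 mitotic and 4 S-phase members, against 6.81% of all genes, many of which have no peak in any library. The reverse was found at 1 mitotic member, Bub1b, and 2 S-phase members, Mcm2 and Rrm1, against 1.91%. The 8 mitotic genes were Ccna2, Ccnb1, Cdk1, Cdc20, Plk1, Aurkb, Kif23 and Top2a. Cdc20 had lengths of 0, 301 and 0 bp in WT libraries, while KO libraries had 481, 492 and 903 bp. Aurkb had no length in WT libraries, while KO libraries had 218, 0 and 388 bp. Kif23 and Top2a had a peak in KO 4 only. Without KO 4, 6 mitotic and 4 S-phase members had a peak in a larger share of KO than WT libraries, and 4.63% of all genes. With all lists at the same covered length these counts fell to 4 mitotic and 0 S-phase members, against 3.45% of all genes. There, 2 mitotic and 7 S-phase members had a peak in a larger share of WT than KO libraries, against 5.53%, so the direction turned for the S-phase members.

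Summed scaled H3K27ac lengths separated the genotypes for the marker lists of stellate cells, cholangiocytes and erythroid cells, and overlapped for those of hepatocytes, endothelium, Kupffer cells with macrophages, and lymphocytes. Endothelial markers ran from 120332 to 130843 bp in WT and from 120537 to 128485 bp in KO, and those of Kupffer cells and macrophages from 7886 to 14567 bp and from 9672 to 13681 bp. Cholangiocyte markers ran from 2323 to 2516 bp in WT, below the 2889 to 4070 bp in KO. Of these markers, Krt19, Krt7, Epcam and Cftr were at 0 in all 6 libraries, and Spp1 was at 0 in WT 1 and WT 4. The sum is thus that of Sox9, with Spp1 in the other libraries. Of 8 stellate cell markers, 2 had an H3K4me3 peak in WT 2 and 5 in KO 4, and their summed scaled H3K27ac length ran from 11636 to 27927 bp in WT and from 34115 to 53106 bp in KO, with Acta2 at 0 in 5 of the 6 libraries. Of 9 lymphocyte markers, 3 had an H3K4me3 peak in WT 2 and 4 in KO 4, their summed scaled H3K27ac length ran from 8678 to 9962 bp in WT and from 7018 to 13930 bp in KO. Cd3e and Il7r had no H3K27ac in any library. Of 10 hepatocyte markers all kept peaks, and their summed scaled H3K4me3 length was 48672 bp in WT 2 and 35396 bp in KO 4. Erythroid markers ran from 8309 to 9825 bp of scaled H3K27ac in WT and from 5742 to 6446 bp in KO, with Hbb-bt and Hba-a1 at 0 in all 6, and overlapped without scaling. In bulk liver, more cells of a type and more signal per cell cannot be told apart, and the part of these shifts in the values of the mitotic genes was not tested. The summed scaled H3K27ac length of the 18 mitotic members ran from 20112 to 23358 bp in WT and from 24371 to 29429 bp in KO. That of the 18 S-phase members ran from 40852 to 45149 bp in WT and from 49022 to 51963 bp in KO. The mitotic sum includes Cdk1, the member with the largest difference, and does not show a shift across the class. With lists cut to the same covered length, 10 of 18 S-phase and 6 of 12 mitotic members were higher in KO, against 56.2% of all genes.

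A wider list held 97 further cell cycle and replication genes. Over the gene windows, 13 of the 95 with an H3K4me3 peak in each library passed a scaled ratio of 1.5 upward and 1 passed downward. Of all genes 7.4% and 4.72% did, as given above. This list was not split by phase. The 13 upward were Ccnd2, Cdkn2a, Cdkn2b, E2f7, Cdc25b, Pkmyt1, Gins2, Rfc2, Tpx2, Ube2c, Anln, Racgap1 and Dlgap5. Of these, only Gins2 at 4.14 and Rfc2 at 1.62 act in copying DNA, and the mitotic gene Dlgap5 stood at 3.14. The gene downward was Tk1, at 0.394. A peak in KO only was found at 2, Cenpf and Melk, against 5.19%, and the median ratio was 1.05. Unscaled, 6 passed upward and 6 downward, against 620 and 1223 of all 12345 genes, and the median was 0.926, against 0.889 over all genes. By H3K27ac, 92 of the 97 were tested and none passed limma. The largest differences upward were at Cdkn1b, the CDK inhibitor p27, with 50.3 ± 3.37% in WT and 62.3 ± 9.43% in KO (SD, n = 3), at E2f6, a repressive E2F, with 1.47 ± 1.29% and 6.48 ± 2.78%, and at Wee1, which holds back Cdk1, with 25.6 ± 1.81% and 30.4 ± 5.17%. The largest downward were at E2f8, with 35.1 ± 5.54% in WT and 18.9 ± 2.15% in KO, at Tk1, thymidine kinase, with 62 ± 7.55% and 49.8 ± 5.05%, and at Mcm10, with 59 ± 10.6% and 48.7 ± 4.95%. At E2f8 all 3 KO libraries (21.4, 18.1 and 17.3%) lay below all 3 WT libraries (39.1, 37.4 and 28.7%), and its limma adjusted p was 0.253. Without scaling the differences upward were wider, with means of 46.6% in WT and 65.4% in KO at Cdkn1b and of 23.7% and 31.9% at Wee1. Those downward were narrower, with means of 57% and 52.7% at Tk1, of 54.3% and 51.6% at Mcm10 and of 32.6% and 20.1% at E2f8.

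CTCF peaks lay in the windows of 16 of the 37 members, and most of the sites called in WT were called in KO as well. The windows of the 37 members touched 28 CTCF sites, of which 20 were called in both WT libraries. Of these 20, 14 were called in both KO libraries and 3 were lost, that is, called in neither, which is 15% against 13.5% of all sites called in both WT libraries. No site was gained in KO, against 0.167% of all sites. The lost sites were at Ccne2 (chr4:11186564-11186928, folds of 4.99 and 8.85 in WT), at Mcm2 (chr6:88879596-88879816, 5.31 and 4.93) and at the edge of the Mybl2 window (chr2:163089669-163090164, 7.7 and 6.36). All of these folds lay below the median of their own list, 9.04 in WT164 and 8.94 in WT165. Sites within 1 kb of a start were called in all 4 libraries at Kif23, at E2f2 and at Mcm5, and at Ccna2 within 1 kb of a span end used as its start (chr3:36572127-36572728, WT folds of 8.18 and 7.12, KO folds of 5.98 and 5.84). The Mcm5 site had WT folds of 11.1 and 13.9 and KO folds of 20.9 and 13.9. The count of lost sites depends on the library, for members and for all sites called in WT. Leaving out WT165 gave 8 of 27, against 7130 of all 27162, and leaving out KO160 gave 4 of 20, against 3927 of 22080. Leaving out WT164 gave 5 of 22, against 4637 of 24152, and leaving out KO163 gave 5 of 20, against 5163 of 22091. With 2 libraries per genotype no exact test of 1 site can pass 0.05, since its smallest p is 1 in 3.

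PPARg, a lipid-responsive nuclear receptor, had peaks at 30 sites in the members' windows. Of these, 10 were called in all 4 libraries, 4 were called in both KO and in neither WT library (13.3%, against 17.9% of all sites), and none in WT only (against 1.05%). A KO-only site lay just before the start of Bub1b, a checkpoint kinase (folds of 9.52 and 8.42), and another at Mcm2 (5.36 and 5.57). The others were in the Cdc20 window (7.51 and 7.86, and 5.01 and 6.18). They lay beyond the 3′ end of Cdc20 and within 1 kb of the start of its neighbour Elovl1. The KO lists were longer, with 26349 and 27439 peaks against 15520 and 16617. With lists of equal length 2 of 22 member sites were KO-only, against 1940 of all 22137 sites. Among sites called in all 4 libraries, the one at Birc5, survivin, had WT folds of 13.8 and 11.2 and KO folds of 30.1 and 28.6. The one at Rrm2 had WT folds of 8.5 and 9.41 and KO folds of 15.5 and 10.7, again without overlap. Of the 10 sites, both KO folds lay above both WT folds at 8, as at 67.5% of all 10131 sites called in every PPARg library. Both lay below at 1, against 4.75%. That site was at Cdkn1a (chr17:29093990-29095297), with WT folds of 22.3 and 15.3 and KO folds of 9.02 and 5.62. The remaining site, at Mcm7, overlapped. PPARg WT 4 came from the other kit, and without it 5 of 27 sites were KO-only and 1 WT-only, against 7776 and 1309 of all 33069. KO-only sites numbered 10 of 30 without KO 7, against 11839 of all 29575, and 6 of 26 without KO 8, against 12350 of 30183. Without WT 2, 6 of 30 were KO-only and 3 WT-only, against 7846 and 1433 of 33390.

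H3K27me3 was nearly absent. In WT156 it was called at Mybl2 (651 bp), Birc5 (408 bp) and Cdkn1a (118 bp), and in KO150 at Mybl2 (267 bp) and Bub1 (167 bp), with no S-phase member in either library. Of all genes 12.5% had a peak in WT156 and 13.7% in KO150. The -log10 q of the member peaks ran from 1.07 to 3.77, and only the Cdkn1a peak in WT156 was above 3. Cdkn1a had 1 CTCF peak or more and PPARg in every library of those factors, and 2101 bp of H3K4me3 in WT 2 against 1868 bp in KO 4, a scaled ratio of 1.01.

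**Figure D4:**
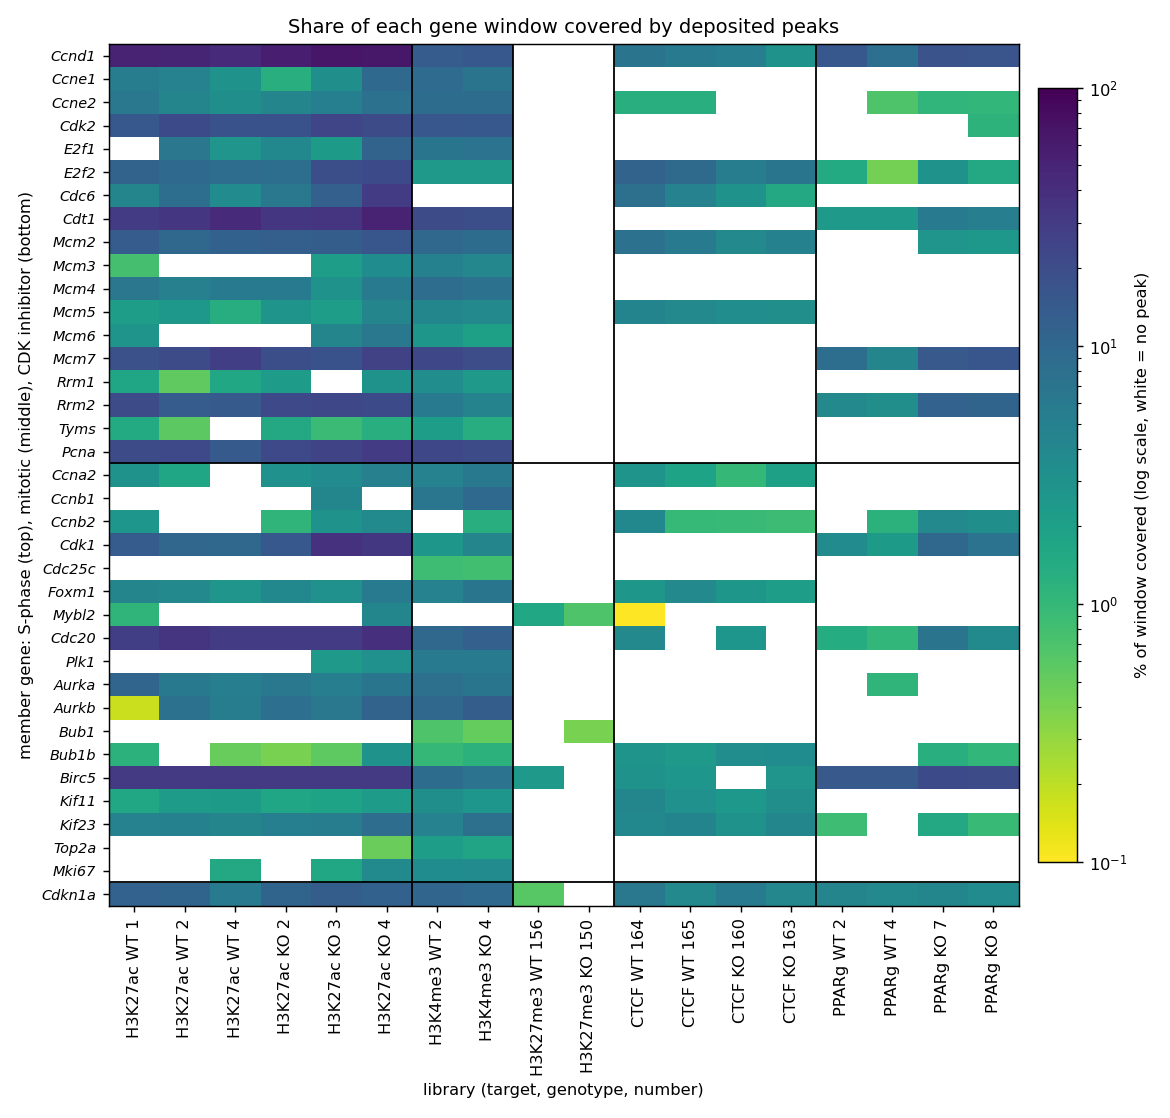
Percentage of each member's window covered by peaks in each of the 18 libraries, unscaled and on a log colour scale, with white for no peak. H3K27ac is dense at S-phase members and patchy at mitotic ones, H3K4me3 is missing at Cdc6 and Mybl2, and H3K27me3 appears in 5 cells of the plot.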

How the data were processed

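The deposited files are peak lists, called per library. Per the submitters' processing notes, the tools were MACS2 2.1.2, BWA 0.7.12, deepTools 3.1.3 and Picard 1.77, and the build was mm10, and the control used for calling is not given in the sources used here. The authors' fold ratio over background and the authors' -log10 q of each peak were used as deposited. Peak lists hold no read counts, so depth is unknown and no interval from counts can be given. What was computed here, with Python 3.11.15 and R 4.3.3, is the bp covered by peaks in each gene's mm10 RefSeq span with 5 kb each side or within 1 kb of listed starts, scaled by the mean total covered length over the library's own. H3K27ac percentages of 14885 genes were tested with limma 3.58.1, genotype as the only term, Benjamini-Hochberg adjustment and a threshold of 0.05, after a test on simulated data. H3K4me3 and H3K27me3, with 1 library per genotype, were compared by a ratio of 1.5 without a test. CTCF and PPARg peaks overlapping by at least 1 bp were merged into sites and classed by the libraries that called them. Nothing in the labels says whether libraries of a group came from separate animals, so p-values measure the spread between libraries. The members, gene lists and named genes were chosen with earlier results of these data known. By the naming rule, values are given for members whose H3K27ac libraries do not overlap between genotypes, for the 4 largest and 4 smallest H3K4me3 ratios over the gene windows, for members with no H3K4me3 peak, with a lost or gained site or with H3K27me3, for 8 members chosen by role, and for 3 genes each way of the wider list by H3K27ac. The genes of the wider list past the H3K4me3 ratio upward, and Cenpf and Melk, are named outside this rule.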

Additional observations from a re-analysis of the deposited data

How the results depend on the processing

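No member passed limma for H3K27ac under any of the 15 alternatives. Over all genes, alternatives gave no calls except percentiles within each library (42 higher, 11 lower) and strongest peaks (62 higher, 9 lower). For the genes named, the sign of the difference changed in 18 of 267 recomputed values, and 9 of 19 genes kept it in every alternative. Members with every KO above every WT library, 3 as reported, numbered 5 of 35 unscaled, against 1523 of all 14877 genes. At the stricter threshold they numbered 1 of 23, against 367 of 12333, and over the span alone 5 of 31, against 991 of 13951. By strongest peak they numbered 6 of 35, against 1454 of 14885, and 1 member lay below, against 831. The 1 at the stricter threshold was Rrm2, an S-phase member, and by percentiles they were Ccnd1, Pcna and Cdk1. Leaving out 1 library at a time gave 4 to 8 above and 0 to 4 below, which fewer libraries alone would raise. Over all genes it gave 1585 to 2114 above and 1772 to 2802 below. The replicate block on numbers 2 and 4 gave 10 above and 3 below of 34 members, against 2590 and 2774 of all 14799 genes. It gave 0 calls, with 395 genes higher and 442 lower at an unadjusted limma p under 0.05. Same-numbered libraries did not deviate together (correlations of -0.236 and -0.326). Only 2 such pairs exist and the deviations are from group means, so these values cannot show whether same-numbered libraries share an animal or a batch.

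H3K4me3 over the gene windows had 5 mitotic members past 1.5 upward. That became 2 unscaled, 2 at the stricter threshold (with 2 in WT only), 1 by strongest peak and 0 at a fold of 2. Over all genes the upward counts were 620 of 12345, 544 of 9985, 764 of 12345 and 405 of 12345. The count of mitotic members in KO only was 3 over the span alone, against 696 of all genes. S-phase members past the ratio numbered 1 downward when unscaled and 1 upward at the stricter threshold, with 2 in WT only. The settings within 1 kb of starts were added after seeing the data. There, mitotic members numbered 4 upward and 3 in KO only, 3 upward and 3 in KO only without the 4 genes of both phases (Ccna2, Mybl2, Top2a and Foxm1), and 1 upward and 3 in KO only at a fold of 2. S-phase members there numbered 1 upward and 1 downward. Of all genes there, 765 of 11081 passed 1.5 upward, 354 passed a fold of 2 upward and 686 had a peak in KO only. Lists of equal peak number gave 3 mitotic members in KO only and 1 S-phase member each way, with 593 of all genes in KO only. Lists of equal covered length gave 2 mitotic upward with 10 in KO only and 2 S-phase upward with 2 in KO only. That cut left the KO 4 list whole and took the weakest peaks from WT 2 alone. Over all genes, those in KO only rose from 686 to 1890 and those in WT only fell from 191 to 35. The counts in KO only at equal covered length therefore depend on the cut. The causes were not tested.

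Lost CTCF sites at members, 3 as reported, were 1 of 15 with lists of equal length and 1 of 13 at the stricter threshold. Over all sites called in WT, 647 of 16280 and 2291 of 13819 were lost there. With a library left out, 4 to 8 were lost at members, against 3927 to 7130 over all sites. KO-only PPARg sites, 4 as reported, were 2 with equal lists, 12 at a reciprocal overlap of 50% and 5 to 10 with a library left out. Over all sites, 6070 were KO-only, with 1940, 10722 and 7776 to 12350 under these settings. Shared PPARg sites, 10 as reported, were 3 of 12 at the stricter threshold and 1 of 30 at that overlap, against 3543 of all 14025 and 1548 of 33952. WT-only sites were 0 to 3 with a library left out, against 566 to 1433 over all sites. Members with H3K27me3 numbered 1 in WT156 and 0 in KO150 at the stricter threshold and 1 in each over the span alone. H3K27ac start counts at equal covered length, 4 mitotic and 0 S-phase higher in KO with 2 and 7 higher in WT, were added after seeing the data; leaving out a library gave 6 to 9 and 3 to 4.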
